A study of Homo sapiens with 7 samples.

Results

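RNA bound by RBM15 in MEG-01 cells was mapped by RNA immunoprecipitation and sequencing (RIP-seq), and 213 of the 1515 significant sites in the deposited list, or 14.1%, carry the annotation intergenic, the label for sites that were assigned to no RefSeq gene. The RefSeq models behind the label were not used here, so the assignment itself was not checked. These 213 sites are the subject here, and are called sites outside RefSeq genes after that label alone. They were taken by that annotation alone, without reference to read counts. By the same annotation, 760 sites of the list lie in introns, 443 in 3’UTRs, 87 in coding sequences, 7 in 5’UTRs and 5 elsewhere. MEG-01 is an established human megakaryoblastic leukemia line. The RIP-seq libraries were labelled as normal IgG or anti-RBM15 immunoprecipitates of these cells. The RNA-seq comprised 1 control library of MEG-01 and 2 libraries of lines with RBM15 knockdown, made with the short hairpins shRBM15#1 and shRBM15#2. All samples were labelled as carrying lentiviral transgenes and were harvested in exponential growth at passage 5, and the vector in the control cells is not given. Each knockdown line is a single stable line with its own hairpin.

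RBM15 is an RNA-binding protein of the spen family, with RNA recognition motifs and a C-terminal SPOC domain. It is fused to MKL1 in a form of acute megakaryoblastic leukemia, and is a subunit of the complex that writes N6-methyladenosine (m6A) on RNA, where it is known for guiding the complex to the long noncoding RNA XIST. A site in an intron or outside annotated genes can lie on unspliced nuclear RNA, on a noncoding RNA or on a transcript that an annotation does not hold.

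The labels of the RIP-seq conflict with its counts. Over the 213 sites, 3090 reads came from the normal IgG library and 101465 from the anti-RBM15 library. A second library labelled normal IgG had 75528 reads, and a second library labelled anti-RBM15 had 3285. The counts of the second pair thus go against its labels, and it was placed in no group. Its values are given beside those of the first pair, and the comparison is between 1 library with each antibody, with no replicate and no test. The list holds only sites with more reads on the RBM15 side, so the direction at each site follows from how the list was made. Total depth of the RIP-seq libraries is unknown, because the list holds only reads over significant sites.

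The sequences below show what many of the sites looked like. All are from the GRCh37 (hg19) genome. The first 4 are the central 150 bases of a site, the window in which composition was measured, on the plus strand, with AC or GT repeats of at least 6 bases in capitals. They are the pair of sites with the most reads in the gene GSE1, which is transcribed on the plus strand, the site near WDR4 with the most reads, and the site with the fewest reads of all.
GSE1, site chr16:85605718-85606111, 5183 anti-RBM15 reads and 63 IgG reads: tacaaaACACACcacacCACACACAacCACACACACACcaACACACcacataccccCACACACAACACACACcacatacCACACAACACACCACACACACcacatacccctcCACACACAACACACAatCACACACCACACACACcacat
GSE1, site chr16:85416374-85417043, 2464 anti-RBM15 reads and 24 IgG reads: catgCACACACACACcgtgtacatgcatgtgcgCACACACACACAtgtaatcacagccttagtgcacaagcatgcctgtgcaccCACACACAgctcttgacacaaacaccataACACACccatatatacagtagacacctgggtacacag
Downstream of WDR4, site chr21:44260389-44260744, 2784 anti-RBM15 reads and 38 IgG reads: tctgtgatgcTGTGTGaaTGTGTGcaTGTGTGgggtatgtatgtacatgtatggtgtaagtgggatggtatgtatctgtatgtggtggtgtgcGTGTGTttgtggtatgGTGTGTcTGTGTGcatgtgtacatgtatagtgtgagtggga
Upstream of PPP6R2, site chr22:50776914-50777302, 55 anti-RBM15 reads and no IgG read: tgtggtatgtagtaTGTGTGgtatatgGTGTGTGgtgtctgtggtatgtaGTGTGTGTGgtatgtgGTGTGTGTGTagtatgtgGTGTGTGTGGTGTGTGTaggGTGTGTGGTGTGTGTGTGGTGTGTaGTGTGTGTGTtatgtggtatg
The next sequence is the central 150 bases, plus strand, of the site with the most reads. It lies on an exon of the long noncoding RNA ENSG00000227706, which is on the minus strand, and the capitals mark runs of at least 6 purines, which are pyrimidines on the strand of the gene.
ENSG00000227706, site chr6:68592542-68593189, 9348 anti-RBM15 reads and 283 IgG reads: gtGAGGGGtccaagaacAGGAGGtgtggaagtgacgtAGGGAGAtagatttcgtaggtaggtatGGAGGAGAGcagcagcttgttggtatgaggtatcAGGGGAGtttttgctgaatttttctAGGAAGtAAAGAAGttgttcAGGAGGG
The last 4 show sites that resemble other sequences. The pair on chromosome 2 are alike over the 150 bases shown, the first from the plus and the second from the minus strand, with the bases that differ in capitals. The site on the 7SK pseudogene RN7SKP203, from the minus strand, is set beside bases 5 to 154 of the RN7SK transcript in the same way.
Site chr2:133043826-133044318, bases 133043841 to 133043990: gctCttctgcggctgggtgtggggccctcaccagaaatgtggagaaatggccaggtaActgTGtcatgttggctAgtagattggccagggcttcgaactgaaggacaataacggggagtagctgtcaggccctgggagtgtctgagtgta
Site chr2:162138617-162138906, bases 162138757 to 162138906: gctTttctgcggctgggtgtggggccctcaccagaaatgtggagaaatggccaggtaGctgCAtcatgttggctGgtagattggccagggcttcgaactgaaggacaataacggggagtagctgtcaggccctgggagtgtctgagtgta
RN7SKP203, site chr2:76672317-76672532, bases 76672383 to 76672532: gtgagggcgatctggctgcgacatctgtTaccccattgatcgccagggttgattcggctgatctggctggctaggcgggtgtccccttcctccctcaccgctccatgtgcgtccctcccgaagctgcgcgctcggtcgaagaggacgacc
RN7SK: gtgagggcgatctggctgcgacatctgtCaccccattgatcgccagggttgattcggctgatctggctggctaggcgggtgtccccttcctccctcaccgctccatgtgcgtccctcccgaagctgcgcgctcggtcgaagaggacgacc

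The 213 sites were low in the IgG library and spread over a wide range in the anti-RBM15 library. Anti-RBM15 reads per site ran from 55 to 9348, with a median of 205, and IgG reads from 0 to 283, with a median of 6. The second library labelled normal IgG had 37 to 7139 reads per site, with a median of 158, and the second library labelled anti-RBM15 had 0 to 280, with a median of 6. Over these sites the second library labelled normal IgG thus stood near the anti-RBM15 library, and the second library labelled anti-RBM15 stood near the IgG library. Intron sites were similar, with medians of 186 anti-RBM15 and 5 IgG reads, whereas 3’UTR sites had more reads with both antibodies, with medians of 436 and 19. The 10 sites with the most reads held 35.9% of the anti-RBM15 reads over all 213.

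The ratio of anti-RBM15 to IgG reads had a median of 36 over the 213 sites and ranged from 11.2 to 198. For the 7 sites with no IgG read, the ratio was taken against 3 counts, the limit that a count of 0 allows, and is a lower bound. The ratio of the summed reads was 32.8, with a 95% exact binomial interval of 31.7 to 34 that covers counting error only. The ratio of summed reads was 39.0 for intron sites, 26.6 for 3’UTR sites and 15.4 for sites in coding sequences. In this measure the sites outside RefSeq genes lay between introns and 3’UTRs. Because depth is unknown, the ratio holds the difference in library size. Scaled to the reads over the sites annotated to genes, the median was 1.29, against 1.38 for intron, 0.842 for 3’UTR and 0.611 for coding-sequence sites. The sites used for scaling were selected by the same contrast. The scaled value therefore compares sites with each other and does not correct for depth. Among the 69 sites with at least 10 IgG reads the unscaled median was 26.2. The sites were 154 to 786 bases wide, with a median of 362, close to the median of 360 for intron sites.

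**Figure D1:**
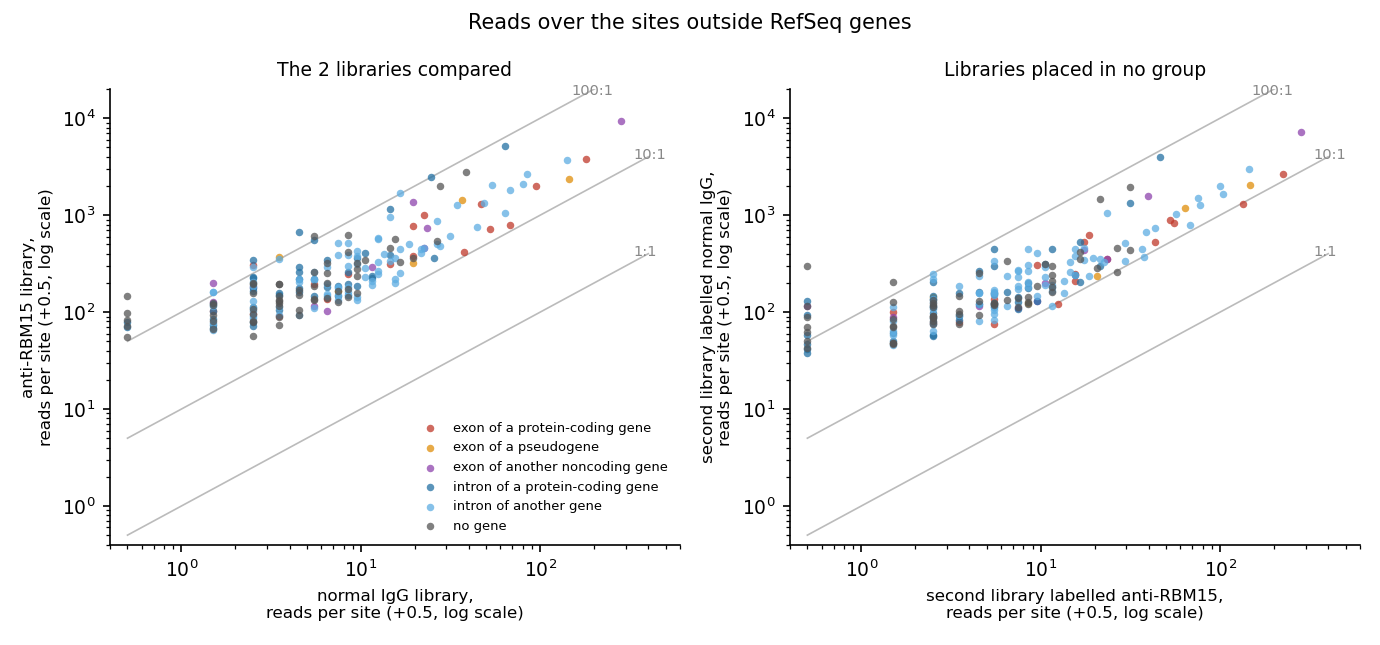
Reads per site in the 4 RIP-seq libraries for the 213 sites, with 0.5 added and log scales on both axes, coloured by what the site overlaps in GENCODE, and with lines at ratios of 1, 10 and 100. All points lie above the line at 10 in the pair of libraries compared on the left, and the pair on the right, whose labels are the other way round, has a similar spread.

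Sites labelled intergenic were for the most part not outside genes in GENCODE. In GENCODE gene models placed on GRCh37, 155 of the 213 sites (72.8%, 95% Wilson interval 66.4% to 78.3%) lay within an annotated gene. Of these, 17 lay on an exon of a protein-coding gene, 5 on an exon of a pseudogene, 10 on an exon of another noncoding gene, 43 in an intron of a protein-coding gene and 80 in an intron of another gene. Long noncoding RNA genes held 90 of the sites within their spans and protein-coding genes 62, with some sites counted in both. The label does not show that RefSeq lacks these genes, which was not checked. The remaining 58 sites, or 27.2%, lay in no gene. With the gene models of the deposited exon bins (Ensembl GRCh37.70), 107 of the 213 lay within a gene and 106 in none, so the share depended on the annotation.

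Reads differed among these classes. The 17 sites on exons of protein-coding genes had a median of 377 anti-RBM15 and 19 IgG reads, close to those of 3’UTR sites. The 43 sites in introns of protein-coding genes had medians of 186 and 4 reads and the highest median ratio, 49.7. The 58 sites in no gene had medians of 148 and 4 reads. These 58 lay 11 bp to 214 kb from the nearest gene, with a median of 5.96 kb, and 39 of them lay beyond the 3’ end of that gene and 19 before its 5’ end. Within 5 kb of a gene, 16 sites were downstream and 10 upstream.

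**Figure D2:**
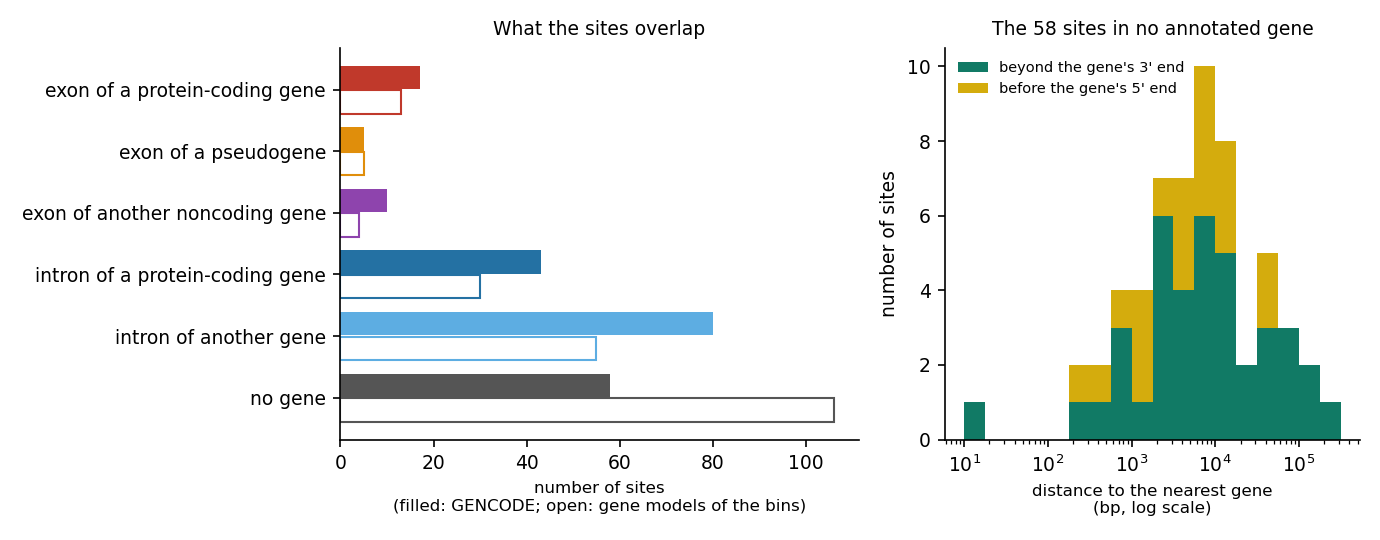
On the left, the number of sites that overlap each kind of annotated feature, with filled bars for GENCODE and open bars for the gene models of the deposited exon bins, and on the right the distance in bp (log scale) from the 58 sites in no GENCODE gene to the nearest gene. The class of sites in no gene holds 58 sites with GENCODE and 106 with the older models, and most distances lie between 1 and 100 kb.

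The sites with the fewest reads and those farthest from genes had ratios within the range of the rest. The 5 with the fewest anti-RBM15 reads had 55 to 68, against 0 to 2 IgG reads. They lay upstream of PPP6R2 (chr22:50776914-50777302), downstream of COQ2 (chr4:84179190-84179629), in MIR646HG (chr20:58889559-58889829), downstream of RN7SL568P (chr15:56320671-56321129) and in SLC45A4 (chr8:142262935-142263133). The 5 sites farthest from any gene were 87114 to 214070 bp away. The farthest, chr4:10965280-10965843 downstream of LINC02498, had 147 reads in the anti-RBM15 library, 0 in the IgG library, 74 in the second library labelled normal IgG and 3 in the second labelled anti-RBM15. Its anti-RBM15 reads were 49.0 times the limit of 3 counts that 0 IgG reads allow, not scaled for depth. The others were chr8:138296436-138296919, chr21:21506821-21507155, chr3:191573184-191573753 and chr4:13140149-13140530, with 96, 345, 155 and 138 anti-RBM15 reads against 2, 10, 9 and 6 IgG reads. Among the 58 sites in no gene, a pair 2028 and 2460 bp downstream of WDR4, a subunit of the tRNA 7-methylguanosine methyltransferase, had the most reads, with 2008 and 2784 anti-RBM15 reads against 27 and 38.

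Alternating AC or GT bases, as printed above, marked a large share of the sites. Within the central 150 bases, 65 of the 213 sites (30.5%, Wilson interval 24.7% to 37%) held ACACAC on either strand, against 8.45% of 426 windows of the same length 1 kb outside the sites. Intron sites had it in 41.1% and their flanks in 12.4%, and 3’UTR sites in 15.1% and their flanks in 8.58%. When all words of 6 bases were ranked by the difference in share between the sites and their flanks, ACACAC and CACACA came first, each with a difference of 22.1 percentage points, followed by CCACAC with 16.4 and CTCACA with 15.7. These measures were chosen after the sequences had been seen and are a description with no test. The sites with ACACAC in the centre had a median of 220 anti-RBM15 reads and 6 IgG reads, and those without it had 202 and 6.5, with median ratios of 41 and 31.1. The ratios of summed reads, 53.2 and 27.8, lay further apart, and the former sum includes the GSE1 sites with 5183 and 2464 reads.

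Where a strand could be assigned, the repeat was unevenly split between the strands. The list gives no strand for sites outside RefSeq genes, so that of the overlapping GENCODE gene was used, and the strand of the RNA itself was not measured. Of the 112 sites that lie within a single GENCODE gene, 29 held ACACAC on the strand of the gene and 5 held GTGTGT, with 1 in both counts. Sites within several genes were left out, also where these genes share a strand. GSE1 gave 7 of the 29, and without its sites 22 and 5 of 104 remained. The 760 intron sites, for which the list gives the strand of the RefSeq gene, showed the same with more sites: 286 held ACACAC on the sense strand, 30 held GTGTGT, and 4 held both. The 431 3’UTR sites with a strand held ACACAC in 18 cases and GTGTGT in 46, so the imbalance was the other way there. The sites near WDR4, which is on the minus strand, and GSE1, on the plus strand, both read as CA repeats in the direction of the gene, although the former lie beyond its annotated end. The printed site upstream of PPP6R2 held GTGTGT and not ACACAC on the plus strand, and it was assigned no strand.

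A second property was an excess of purines over pyrimidines or the reverse. In 76 of the 213 sites (35.7%, Wilson interval 29.6% to 42.3%), at least 65% of the central 150 bases were of the same kind, purine or pyrimidine, against 6.57% of the flanking windows. The share was 41.8% in intron sites and 4.97% in 3’UTR sites. On the strand of the gene, 31 of the 112 sites were poor in purines, with at most 35%, and 7 were rich in them, with at least 65%. Among intron sites these numbers were 298 and 20 of 760. In both sets more sites were poor in purines than rich in them on the sense strand, and 129 of the 213 had the repeat, the excess or both.

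Other composition differed less. GC content had a median of 47.3% in the sites and 45.3% in their flanks, between 50% for intron sites and 38% for 3’UTR sites. GGACT, the core of the m6A consensus, read on either strand, was present in 14.1% of the sites and in 22.8% of their flanks, and in 14.1% of intron sites. Runs of 6 T or 6 A were present in 7.04% of the sites and 19.5% of the flanks, and in 31.4% of 3’UTR sites and 30% of their flanks. The shares for GGACT and for T runs were therefore lower in the sites than beside them, in introns as well. A word in a window is not a binding or methylation site.

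**Figure D3:**
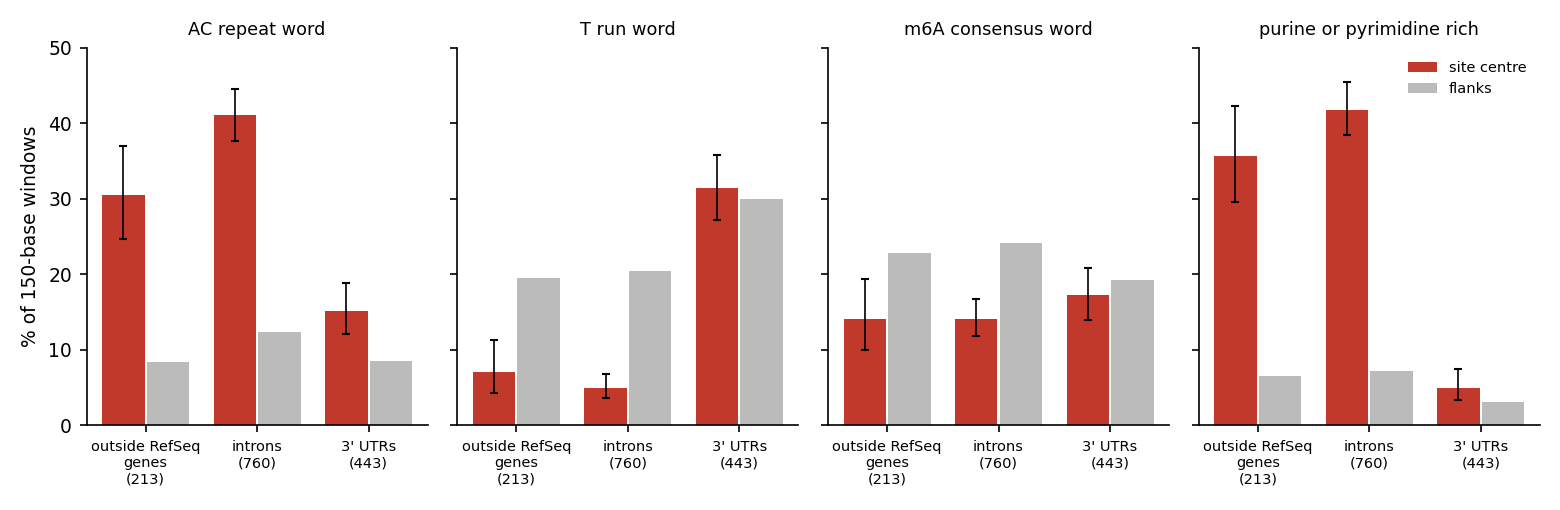
Share of 150-base windows, in percent, that hold an AC repeat word (ACACAC), a T run word (TTTTTT) or the m6A consensus word (GGACT), all read on either strand, or that are at least 65% purine or pyrimidine, for site centres with 95% Wilson intervals (red) and flanks 1 kb away (grey). For the AC repeat and the base excess, the sites outside RefSeq genes (30.5% and 35.7%) resemble intron sites (41.1% and 41.8%) more than 3’UTR sites (15.1% and 4.97%).

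GSE1, which encodes a coiled-coil protein found with histone deacetylase complexes, held more of the sites than any other gene. All 10 of its sites were intronic and lay 13.5 to 426 kb from its GENCODE start at position 85203131 on chromosome 16. The Ensembl models of the bins begin at 85645015, downstream of all 10, and no site in the list carries the symbol GSE1. Together the 10 had 10980 reads in the anti-RBM15 library, 122 in the IgG library, 7190 in the second library labelled normal IgG and 128 in the second labelled anti-RBM15. The ratio of these sums, 90, was above the ratio of 32.8 over all 213 sites, and the single sites ranged from 49.7 to 168. The strongest, chr16:85605718-85606111, had 5183 and 63 reads and chr16:85416374-85417043 had 2464 and 24. ACACAC stood on the sense strand in the centre of 8 of the 10 sites and GTGTGT in none. The remaining 2 sites, chr16:85629197-85629421 and chr16:85629492-85629740, were 20.7% and 21.3% purine on the sense strand, and the former also lies on an exon of the noncoding gene ENSG00000260417.

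A second concentration was on chromosome 6, where 7 sites lay within 4.16 kb (chr6:68592542-68596699), in the long noncoding RNA gene ENSG00000227706. The nearest protein-coding gene, the adhesion receptor gene ADGRB3, was 748475 bp or more away. The 7 sites had 16760 anti-RBM15 and 590 IgG reads, a ratio of 28.4, with 13008 and 625 in the second libraries labelled normal IgG and anti-RBM15. The strongest, on an exon, had 9348 anti-RBM15 reads, and the other 6, in introns, had 505 to 2115. Those 6 also lie in ENSG00000286680, a noncoding gene on the opposite strand. All 7 were 29.3% to 39.3% purine on the strand of ENSG00000227706 and none held an AC repeat. At least 88.8% of the 50-base windows of each occurred once in the genome, so reads could be placed there.

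Clusters of this kind were few. When sites at most 10 kb apart were joined, 55 of the 213 (25.8%) fell into 24 clusters, of which 3 had at least 3 sites. The share was 24.5% among intron sites and 17.4% among 3’UTR sites. The second cluster of 3 lay in the noncoding genes RP11-782C8.1 and RP11-782C8.2 (chr1:143168963-143173651), with 680 anti-RBM15 and 21 IgG reads, and the third over RNF5 and PBX2 in the major histocompatibility complex, described below. Only 47.6% to 57.5% of the 50-base windows of each site in the second cluster occurred once in the genome, so its reads may include those of other copies. In the third cluster the share was 55.1% to 100%.

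Other long noncoding RNA genes held several sites each, spread over long introns. CCDC26, a noncoding gene studied in myeloid leukemia, held 7 intronic sites with 209 to 2043 anti-RBM15 reads, and the sums were 4328 and 140, a ratio of 30.9. The strongest was chr8:130463897-130464398, with 2043 reads in the anti-RBM15 library, 53 in the IgG library, 1272 in the second library labelled normal IgG and 77 in the second labelled anti-RBM15. XACT, a noncoding RNA that coats the active X chromosome in pluripotent cells, held 4 sites, 3 of them on exons, with 1003 and 47 reads, a ratio of 21.3. The ratios of the 4 sites ranged from 17.0 to 26.5. MIR646HG held 4 intronic sites with 1185 and 33 reads, and EPIC1, a noncoding RNA known for binding MYC, held 3 with 1230 and 28. DIRC3-AS1 held 2 sites with 951 and 1709 anti-RBM15 reads against 14 and 16, and both held ACACAC on the sense strand, the former together with GTGTGT. In PSMD14-DT, a site at chr2:162135094-162135375 had 3665 anti-RBM15 and 140 IgG reads, the fourth highest count of all 213, and chr2:162138617-162138906 had 1438 and 36.

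**Figure D4:**
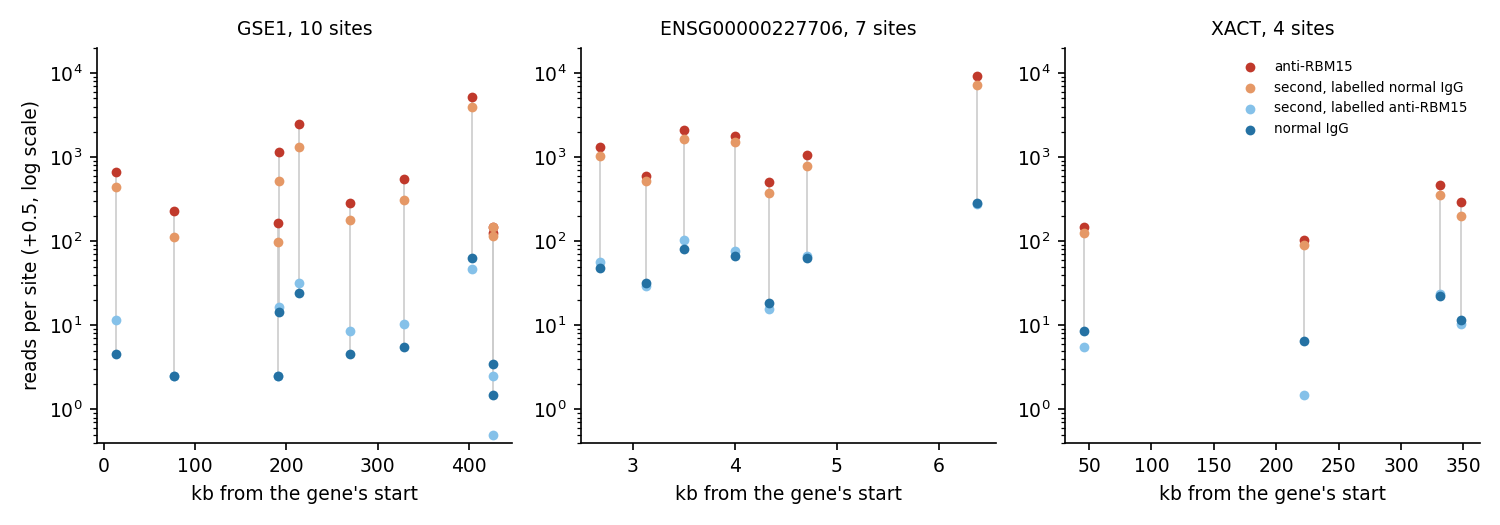
Reads per site (0.5 added, log scale) in the 4 RIP-seq libraries against the distance of the site from the gene's start in kb, for the 10 sites in GSE1, the 7 in ENSG00000227706 and the 4 in XACT. In each gene the anti-RBM15 library and the second library labelled normal IgG lie far above the other pair at every site.

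The exons of protein-coding genes came mainly from 1 region. Of the sites in the list between 28 and 34 Mb of chromosome 6, the region of the major histocompatibility complex (MHC), 16 of 16 were annotated intergenic, against 14.1% of the list as a whole. In GENCODE, 11 of the 16 lay on exons of protein-coding genes, 4 in introns of such genes and 1 in another gene, and these 11 made up most of the 17 coding-exon sites. Chromosome 6 as a whole held 29 of the 213 sites.

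The MHC site with the most reads lay on an exon of MPIG6B (chr6:31693429-31694007), which encodes an inhibitory receptor of megakaryocytes and platelets. There were 3799 anti-RBM15 and 179 IgG reads, with 2657 in the second library labelled normal IgG and 224 in the second labelled anti-RBM15, a ratio of 21.2 (18.3 to 24.8). TUBB, a beta-tubulin gene, followed with 2019 and 94 reads (chr6:30692144-30692546). GABBR1, a subunit of the GABA B receptor, held 1 exonic site with 784 and 67 reads (chr6:29570668-29571085) and 2 intronic sites with 226 and 383 anti-RBM15 reads. At all 3 GABBR1 sites the second library labelled normal IgG exceeded the anti-RBM15 library, with 1631 against 1393 reads in all. PBX2, a homeodomain transcription factor gene, held 2 exonic sites with 315 and 769 reads (chr6:32153712-32153977 and chr6:32156735-32157350), and RNF5, a ubiquitin ligase gene, 1 with 244 (chr6:32148058-32148516). MSH5 (chr6:31720688-31721096), a gene of meiotic recombination, had the lowest ratio of all 213 sites, 11.2 (7.96 to 16.1). PPP1R18 (chr6:30653877-30654310) had 377 and 19 reads. The coding-exon sites outside the MHC included 2 of KANSL1, a scaffold gene of the NSL histone acetyltransferase complex, with 713 and 52 reads (chr17:44248303-44248826) and 102 and 1 (chr17:44122888-44123283), and 1 of SCP2, a sterol carrier protein gene, with 309 and 2 (chr1:53516424-53516676).

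Some sites could not be told apart from other copies of their sequence. In 150 of the 213 sites (70.4%), every window of 50 bases occurred once in the genome. In 17 (7.98%) under 50% of the windows did, against 1.45% of intron sites and 2.93% of 3’UTR sites. In 11 sites (5.16%, Wilson interval 2.91% to 9.01%), at least 80% of the site aligned to a transcript annotated elsewhere at 90% identity or more, against 0.526% of intron sites and 4.97% of 3’UTR sites. The read counts of such sites may hold reads of the other copies, and how many was not tested.

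The most exact match was the processed pseudogene EEF1A1P5 (chr9:135894816-135895056), whose site of 241 bases was identical to EEF1A1, which encodes a translation elongation factor, and no 50-base window of it was single-copy. There were 2348 anti-RBM15 and 145 IgG reads, with 2050 in the second library labelled normal IgG and 147 in the second labelled anti-RBM15. EEF1A1 itself holds 1 site of the list. RPL24P4 (chr6:42924195-42924469, 324 and 19 reads) was 98.9% identical to RPL24, a ribosomal protein gene, and the site on SNRPEP4 (chr19:5576641-5576901, 166 and 7 reads) was 98.9% identical to SNRPE, a spliceosomal protein gene. RN7SKP203, printed above, was 98.6% identical to RN7SK, the small nuclear RNA that holds the elongation factor P-TEFb inactive, and had 1381 and 19 reads, a ratio of 72.7. The site on AP000525.9 (chr22:16158896-16159140) was 99.2% identical to the pseudogene DUXAP10 and had 198 and 1 reads.

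Sites also resembled each other. With at least 80% identity over at least 50% of a site, 24 sites fell into 10 groups of 2 or 3. The group with the most reads joined chr2:133043826-133044318, chr2:162138617-162138906 and chr1:143279046-143279322, with 2645, 1438 and 104 anti-RBM15 reads and 84, 36 and 4 IgG reads, at 95.9% to 96.8% identity. The second of these lies on the processed pseudogene ENSG00000225813, to whose transcript chr4:49313794-49314014 and chr21:9700254-9700487 also aligned, with 173 and 508 reads against 8 and 26. Of the 24 sites, chr8:138296436-138296919 was also among those farthest from any gene.

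Whether the genes under these sites changed with less RBM15 was examined in the RNA-seq. The RNA-seq libraries held 53230029, 41629454 and 52458857 counts summed over exon bins, where a read that spans several bins can count more than once. CPM values are these counts summed per gene and scaled to the library size. RBM15 itself was at 85.1 CPM in the control and at 41.2 and 40.4 CPM in the knockdown lines (log2 fold change -0.93, edgeR adjusted p = 0.091). Of the 5 megakaryocyte markers, GATA1, TAL1, ITGA2B and GP1BA were detected in all 3 libraries, at 3.18 CPM or more, and PF4 had 2 to 4 reads. Markers of T cells, B cells, monocytes and hepatocytes (CD3E, MS4A1, CD14 and ALB) were at 0.153 to 3.91 CPM. With 1 control, the spread comes from the pair of knockdown lines alone, and the p-values measure only the spread between these samples.

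Sites overlapped exon bins of 20 genes, of which 19 had the 30 counts needed for a test. With edgeR, 0 of the 19 passed an adjusted p under 0.01, against 0.346% of the 24887 genes tested, 4 had an unadjusted p under 0.05, against 18.8% of all genes, and DESeq2 called 1, against 2.11% of all genes. The former count is near the share over all genes, and the latter is a single gene. The median log2 fold change of the 19 was -0.20, and that of all genes was 0.02. Of the 19, 13 had values below 0. The 4 genes with a low unadjusted p were MHC genes, and their values were far apart. GABBR1 was at 35.2 CPM in the control and at 9.61 and 11.9 CPM in the knockdown lines, a log2 fold change of -1.58 (edgeR adjusted p = 0.027), and it is the gene DESeq2 called, with an adjusted p of 0.00055. MPIG6B was at 32.2, 12.7 and 12.1 CPM, a log2 fold change of -1.25 (edgeR adjusted p = 0.06). Both knockdown lines lay below the control for these genes by a similar factor. MSH5 was at 9.63, 4.12 and 5.47 CPM (log2 fold change -0.88, edgeR adjusted p = 0.22). TUBB was at 415, 590 and 566 CPM (log2 fold change 0.61, edgeR adjusted p = 0.21), above the control in both lines.

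The other genes with sites on exons differed less between libraries, or their knockdown lines differed from each other. EEF1A1P5 was at 3860, 2910 and 2840 CPM, and since it is identical to EEF1A1 at the site, its reads may be those of EEF1A1. KANSL1 was at 47.5, 33.3 and 29.7 CPM, PBX2 at 49.4, 39.6 and 49.6, SCP2 at 219, 151 and 234, RNF5 at 44.4, 26.2 and 41.4, PPP1R18 at 54.6, 36.5 and 51.1, RPL24P4 at 86.0, 65.8 and 70.6, RN7SKP203 at 144, 84.8 and 130, and SNRPEP4 at 22.3, 21.7 and 25. None of these differences passed the test, with edgeR adjusted p-values from 0.36 to 0.98. The sites on RPL24P4, RN7SKP203 and SNRPEP4 closely resemble RPL24, RN7SK and SNRPE, so the reads of these pseudogenes may also include those of the latter genes.

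**Figure D5:**
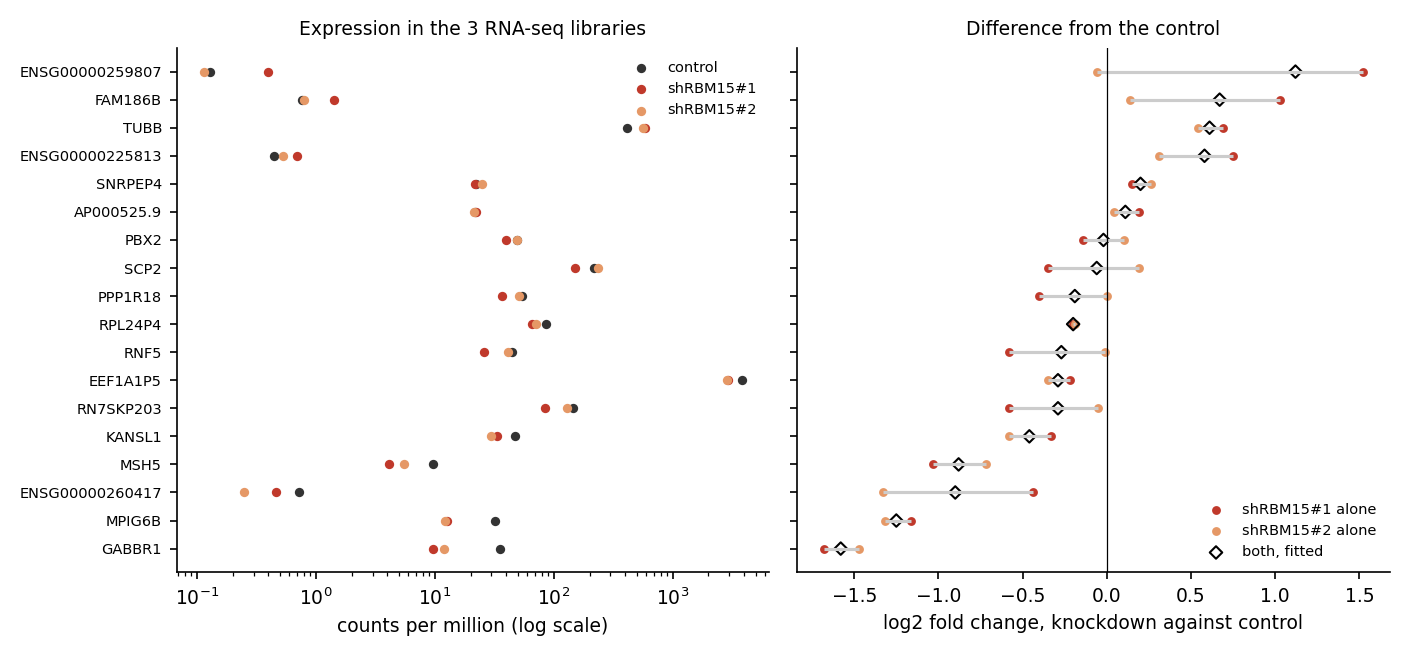
RNA-seq of tested genes with a site on an exon bin, as CPM (log scale) in the control and both knockdown libraries on the left, and as log2 fold change against the control on the right, for each line alone (points) and fitted over both (diamonds). GABBR1 and MPIG6B lie lowest, with both lines below -1. For several other genes, RN7SKP203 among them, the lines lie apart, most of all for ENSG00000259807 (1.52 and -0.06), which had few counts.

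The genes that hold a site within their span but not on an exon bin gave the same picture. This list of 76 genes was added after the data had been seen. Of the 73 tested, edgeR called 0 at an adjusted p under 0.01, 10 had an unadjusted p under 0.05, against 18.8% of all genes, DESeq2 called 1, against 2.11%, and the median log2 fold change was -0.14. The gene DESeq2 called was ENSG00000268555, at 120 CPM in the control and 46.4 and 51.9 CPM in the knockdown lines, a log2 fold change of -1.16 (adjusted p = 0.0082 with DESeq2 and 0.038 with edgeR). CPOX, an enzyme gene of heme synthesis, had a log2 fold change of 0.98 (edgeR adjusted p = 0.088), and RIPOR3 had 1.61 (edgeR adjusted p = 0.14) with lines far apart, at 53.6 and 24 CPM against 14.1 in the control. CCDC26, XACT and MIR646HG were among them, and the log2 fold change was -0.43 for CCDC26 (edgeR adjusted p = 0.37), 0.44 for XACT (adjusted p = 0.72) and -1.17 for MIR646HG (adjusted p = 0.31). GSE1 entered neither list, since its sites lie outside the older gene model, and the same holds for ENSG00000227706, PSMD14-DT and DIRC3-AS1. Of the 7 sites in CCDC26, 2 lie within its older model. In all, 106 of the 213 sites lie in no gene of the older models, so the RNA-seq comparison does not cover them.

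Use of the exon bins under the sites did not pass the test either. Of the 31 bins that sites overlapped, 22 could be tested against the rest of their genes, and edgeR's diffSpliceDGE called 0 at an unadjusted p under 0.05 and a fold over 1.2, against 1.45% of the 234192 bins tested. No bin had an unadjusted p under 0.05. The median log2 change in use was -0.01. The largest was in bin 11 of MSH5, with 24 control reads against 4 and 8 with knockdown (log2 change in use -1.08, unadjusted p = 0.081, adjusted p = 1), and the bin shares 18 bases with the site. At the MPIG6B site, the bin had 311, 146 and 136 reads and its use differed by 0.17 on the log2 scale (adjusted p = 1). The TUBB bin that shares 372 bases with its site had 5765, 8293 and 9069 reads, and its use differed by 0.01 on the log2 scale.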

How the data were processed

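The RIP-seq comprised 4 libraries and the RNA-seq 3. Per the paper's methods, the authors used Trimmomatic on the RIP reads and STAR for alignment to hg19. Peaks came from the coverage of all samples together and were tested with DESeq. They deposited raw read counts per significant peak, with width, RefSeq annotation and their own log2 fold change, p-value and FDR, which were not used. For the RNA-seq they deposited raw counts per Ensembl GRCh37.70 exon bin, from unstranded libraries, and a DEXSeq table of test values, also not used. Its 809 wrapped lines were left out. Lines that name no gene held 23.2%, 32.0% and 23.5% of the RNA-seq counts and entered no library size. No strand was counted, so reads of overlapping antisense genes cannot be told apart.

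The labels of 2 RIP-seq libraries conflict with the authors' comparison, and these enter no comparison. Sites annotated intergenic were overlapped with GENCODE v44lift37 and with the deposited bins. Composition was read from GRCh37 in the central 150 bases and in flanks 1 kb away. Similarity was found with BLAST 2.17.0. Genes (bin counts summed, at least 30) were tested with edgeR 4.0.16 (TMM, quasi-likelihood, Benjamini-Hochberg adjustment, called under 0.01), with DESeq2 1.42.0 as an alternative, and bins with diffSpliceDGE, since DEXSeq was not at hand. On simulated data with the depths of the control and knockdown libraries, 91.5% of genes changed by 2 and 19.6% of genes changed by 1 on the log2 scale were called among 24887. All genes were simulated with the same assumed spread, without the real differences between the knockdown lines. These shares therefore do not measure recovery in the real data.

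Sites named are the 10 with the most and the 5 with the fewest anti-RBM15 reads, those in clusters of at least 3, those on exons of the 10 genes with the highest CPM in the control, and the 5 farthest from any gene. At the main settings of edgeR no gene or bin under a site was called. Further sites, those of genes with several sites, pseudogenes and sites alike in sequence, were named after their values were seen. The members and lists were chosen with earlier results of these data known. Values of some genes are not reported here.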

Additional observations from a re-analysis of the deposited data

Results flagged for a closer look

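The second library labelled normal IgG had 75528 reads over the 213 sites, 24.4 times those of the normal IgG library and 74.4% of those of the anti-RBM15 library, a signal above the control in a library that no comparison here uses. The second library labelled anti-RBM15 had 3285 reads, 1.06 times those of the normal IgG library. Library sizes are unknown for both.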

How the results depend on the processing

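The list holds only sites that passed the authors' filter, and 1 library with each antibody gives no replicate error, so the RIP-seq values carry counting error only. The number of RNA-seq genes called among those with a site on an exon was 0 with edgeR and with DESeq2 size factors, 1 with DESeq2, 1 at an adjusted p under 0.05, and 2 without the filter on low counts, where GABBR1 and MPIG6B passed. Their median log2 fold change was -0.05 to -0.33 when a knockdown line was left out, with 1 library on each side and no test. No bin under a site was called under any alternative run, and the median change in use was -0.03 to 0.01 with a line left out.

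The share of sites within a gene fell to 50.2% with the gene models of the deposited bins, and the share on exons to 10.3%. The share in clusters was 14.1% at 1 kb and 36.2% at 50 kb. The median distance, with protein-coding genes only, was 136 kb over the sites outside those genes. The median read ratio was 1.29 relative to the sites annotated to genes, which is not a correction for depth, and 26.2 at 10 or more IgG reads. With windows of 100 bases, 1.88% of sites had under 50% of their windows single-copy. GGACT was in 8.92% of sites in the central 100 bases and 35.7% over whole sites, T runs in 3.29% and 17.4%, and ACACAC in 40.4% over whole sites, as wider windows hold more words. Of 66 alternatives over 21 results, 46 stayed within the error or on their side of the threshold, 16 moved further and are given here, and 4 brought GABBR1 or MPIG6B past it. No value that passed a test changed sign, but the median change in bin use, -0.01, was 0.01 without shRBM15#2. No paired analysis was possible because the control is 1 library and shares fewer than 2 replicate numbers with the knockdown lines.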
